A study of Mus musculus with 9 samples.

Results

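The genes described here are 10 members of the endosomal and lysosomal machinery that turns taken-up protein into peptides: the cathepsins Ctsb, Ctsc, Ctsd, Ctse, Ctsh, Ctsl, Ctss and Ctsz, the asparaginyl endopeptidase Lgmn and the thiol reductase Ifi30. They were chosen by name, and all 10 were found among the 18193 genes with a probe set that carries a single symbol. All 10 also passed the filter on low values that left 10916 genes for testing. Affymetrix arrays gave messenger RNA levels for 3 cell types: CDC (conventional dendritic cells), NK (natural killer cells) and IKDC (killer dendritic cells that produce interferon). Each was sorted fresh from the spleen and the lymph node of naive BALB/c mice aged 6 to 8 weeks. No group carried a transgene or a treatment. Each cell type had 2 spleen arrays and 1 lymph node (LN) array, 9 arrays in all. The sort gates, and whether cells of several mice were pooled, are not given in the sources used here.

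Antigen-presenting cells take protein into endosomes that acidify, where Ifi30 reduces disulphide bonds and the cathepsins and Lgmn cut the unfolded chains. In CDC the best known task of this machinery is to trim the invariant chain and to supply peptides for MHC class II molecules, a task in which Ctss has the main part. The same proteases also serve other ends: in cytotoxic lymphocytes Ctsc removes the propeptides of granzymes, and in all cells Ctsd and Ctsb degrade lysosomal cargo. IKDC were described as cells that bear surface markers of both dendritic cells and NK, so the levels of these genes place IKDC relative to each.

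Sequence windows of 250 bases upstream of the transcription start were read from RefSeq (GRCm38.p6) for 7 of the 10 genes, as 8 windows; Ctsb, Ctse and Ctsh were not matched. Both strands were searched for CACGTG, the E-box at the heart of the element that the lysosomal regulator TFEB binds, for the longer TCACGTGA that contains it, for an interferon response element (a pair of GAAA repeats with 2 bases of any kind between them), and for GAGGAAGT, a site for PU.1, which Spi1 encodes. Over all 32851 windows of the same length, 6.02% held CACGTG, 0.785% TCACGTGA, 2.98% the interferon response element and 2.44% GAGGAAGT. CACGTG stood in windows of 4 members, Ctsd, Ctsl, Lgmn (not in both of its windows) and Ifi30, and the longer form in those of Ctsd and Ifi30. The motifs were chosen with these sequences in view. Members are counted by gene and the shares by window, so the shares are no test of the members. Ctss alone among the matched members held the interferon response element, and Ctsc alone GAGGAAGT. The windows of Ctsd and Ifi30 are shown because these genes share TCACGTGA yet differed between CDC and the other cells in opposite directions, that of Ctss because it is the class II protease, and that of Ctsl because its level stood highest on the LN IKDC array. Capitals mark the motif matches, each sequence runs 5′ to 3′ on the gene's own strand, and a match is a description of letters, not of a bound site. The windows lie at chr7:142387828-142388077 on the minus strand for Ctsd, chr8:70766664-70766913 on the minus strand for Ifi30, chr3:95526536-95526785 on the plus strand for Ctss and chr13:64370521-64370770 on the minus strand for Ctsl.
Ctsd: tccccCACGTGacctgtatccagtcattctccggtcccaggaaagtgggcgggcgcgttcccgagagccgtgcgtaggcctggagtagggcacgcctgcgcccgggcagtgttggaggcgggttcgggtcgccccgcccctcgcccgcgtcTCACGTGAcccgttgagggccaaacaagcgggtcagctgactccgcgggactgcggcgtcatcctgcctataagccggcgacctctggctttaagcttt
Ifi30: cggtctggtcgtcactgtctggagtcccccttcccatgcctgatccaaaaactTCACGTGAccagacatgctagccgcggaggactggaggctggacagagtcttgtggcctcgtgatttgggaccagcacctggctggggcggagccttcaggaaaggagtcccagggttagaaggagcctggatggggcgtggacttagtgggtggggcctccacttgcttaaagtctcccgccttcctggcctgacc
Ctss: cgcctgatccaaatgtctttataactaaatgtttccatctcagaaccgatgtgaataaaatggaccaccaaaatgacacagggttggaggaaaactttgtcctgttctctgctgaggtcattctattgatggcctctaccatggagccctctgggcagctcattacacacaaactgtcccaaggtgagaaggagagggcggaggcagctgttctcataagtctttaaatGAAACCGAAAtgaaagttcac
Ctsl: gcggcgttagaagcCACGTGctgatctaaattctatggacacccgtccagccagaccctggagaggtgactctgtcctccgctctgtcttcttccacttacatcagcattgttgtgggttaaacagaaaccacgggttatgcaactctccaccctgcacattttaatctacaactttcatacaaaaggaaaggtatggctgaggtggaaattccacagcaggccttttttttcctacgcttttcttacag
In Ctsd the CACGTG matches began 245 and 98 bases upstream of the start, the latter inside TCACGTGA, in Ifi30 the TCACGTGA match began 197 bases upstream, in Ctss the interferon response element spanned bases 21 to 12 upstream, and in Ctsl CACGTG spanned bases 236 to 231.

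The labelled cell types were checked against marker lists. The summed intensity of 6 NK marker genes (of 8 listed) lay between 18607 and 30255 on the NK and IKDC arrays and between 499 and 1328 on the CDC arrays. Summed over 7 conventional dendritic cell markers (of 8 listed) it lay between 8197 and 11644 on the CDC arrays, between 2357 and 2887 on the IKDC arrays and between 323 and 2781 on the NK arrays, where the highest sum came mainly from Itgax on spleen NK array 1. Itgax was also the largest term of each IKDC sum, at log2 levels of 11.03 and 11.24 in spleen and 10.88 in LN. On the IKDC arrays Zbtb46, Cd86 and Xcr1 read 4.23 to 6.70, beside 7.91 to 11.07 on the CDC arrays. Ccr7 overlapped, at 5.91 and 6.23 in spleen IKDC and 6.88 in LN IKDC, beside 6.25 and 8.22 in spleen CDC and 9.17 in LN CDC. Flt3 and Cd209a reached 8.69 and 8.53 on the LN IKDC array. The LN IKDC array stood apart in the plasmacytoid dendritic cell list, whose 5 genes summed to 8984 there and to between 561 and 2397 on the other arrays. Xist was at a log2 level of 6.02 to 6.36 on the spleen arrays numbered 1 and of 11.43 to 12.48 on all others, so the spleen arrays 1 and 2 of each cell type came from different mice of different sex, and the spread between them includes that difference. Nothing in the labels says whether arrays of 1 number share mice, and p-values measure only the spread between these arrays. In these bulk samples a lower level cannot be told apart from fewer cells that carry the transcript.

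**Figure D1:**
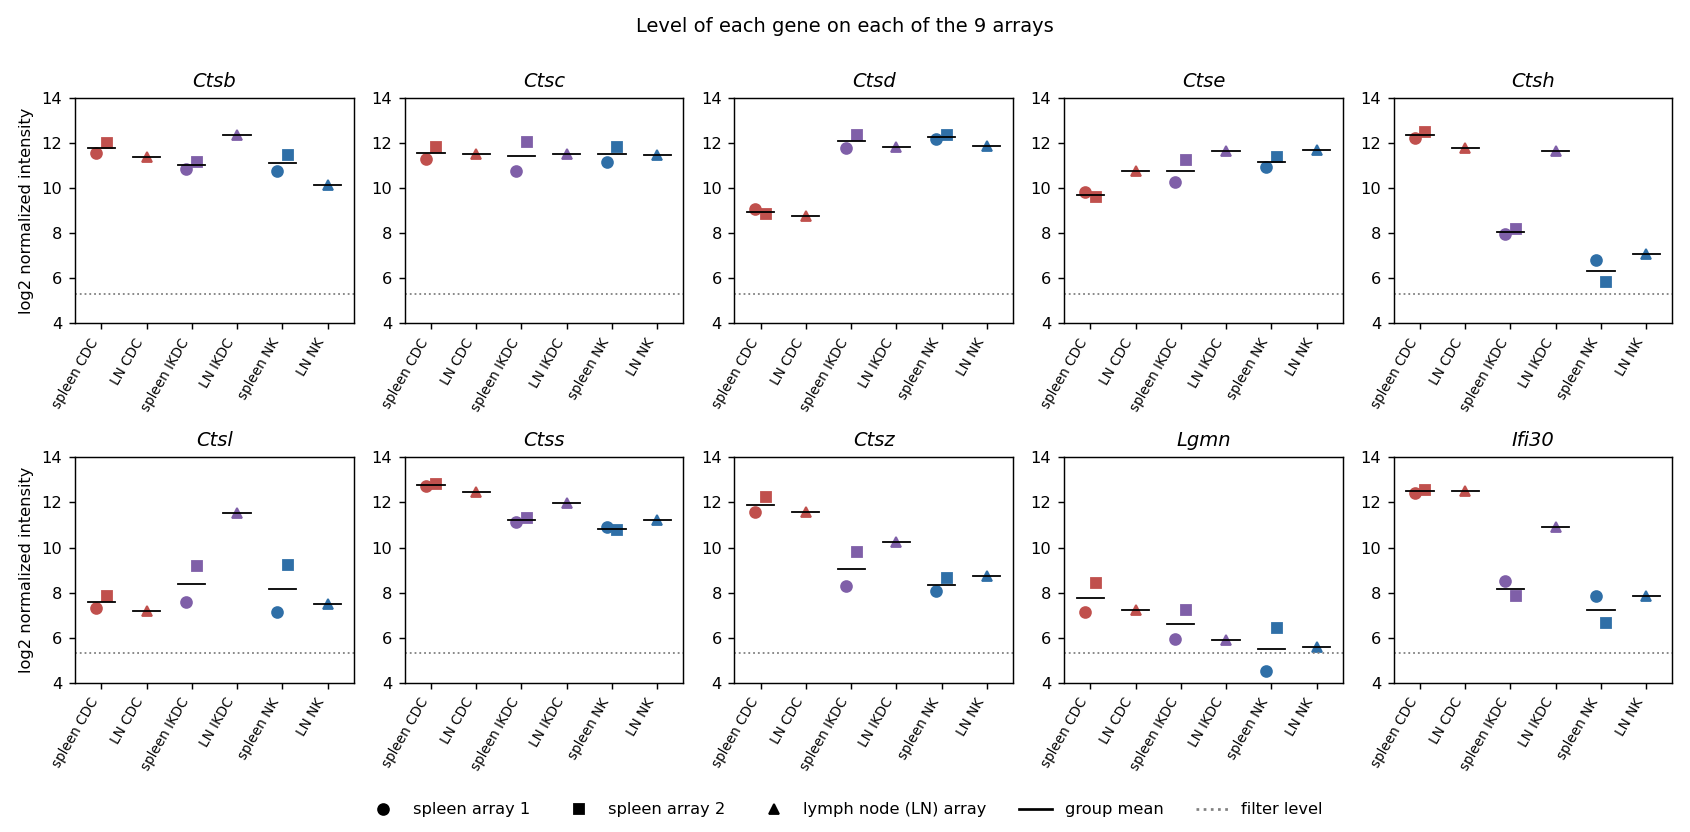
Log2 normalized intensity of each gene on each of the 9 arrays, with CDC in red, IKDC in purple and NK in blue. Circles and squares are spleen arrays 1 and 2, triangles are LN arrays, black bars are group means and the dotted line is the filter level of 5.31. Ctsd is lowest in CDC, while Ctsh, Ctss, Ctsz and Ifi30 are highest there, and Ctsh and Ctsl on the LN IKDC array lie far above the spleen IKDC arrays.

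In spleen, the aspartic protease Ctsd was called higher in both IKDC and NK than in CDC, and 4 genes, Ctsh, Ctss, Ctsz and Ifi30, were called lower in both. Levels are log2 of the quantile-normalized intensity plus an offset of 6.49, which understates the change of low genes, and a gene was called where limma's p, adjusted by Benjamini and Hochberg over all genes tested, was under 0.05. IKDC against CDC gave calls for 5 of the 10 members, 1 higher and 4 lower, where 10.3% of all genes tested were called, 4.73% higher and 5.57% lower. NK against CDC gave calls for 6, 2 higher and 4 lower, where 13.5% of all genes were called, 6.54% higher and 6.97% lower. The median difference of the 10 members was -0.99 for IKDC and -1.32 for NK, beside 0.04 and 0.06 over all genes tested. Both comparisons share the CDC arrays. Taking the 3 arrays of each cell type over both organs, the IKDC arrays did not overlap those of CDC for 5 members, 1 higher and 4 lower, where 30.3% of genes did not overlap (15.8% higher, 14.5% lower). For NK it was 7 members, 2 higher and 5 lower, where 36.9% did not (19.7% higher, 17.2% lower).

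**Figure D2:**
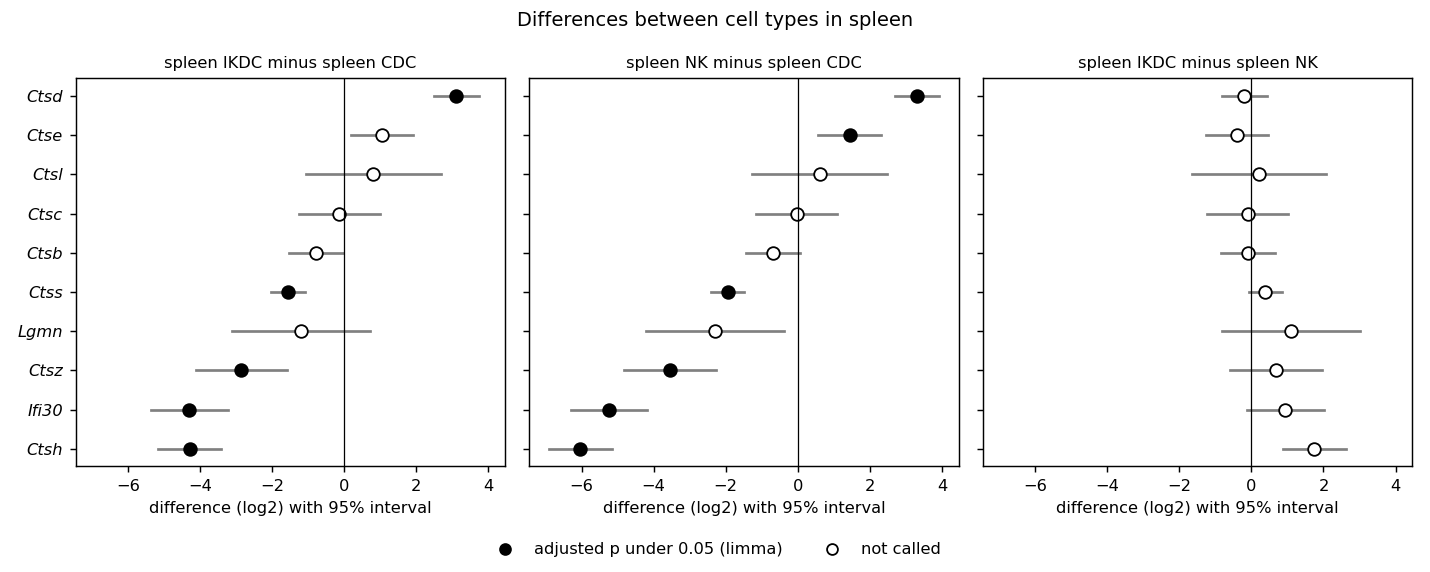
Differences between cell types in spleen on the log2 scale for the 10 genes, with 95% intervals from limma. Filled points have an adjusted p under 0.05 and open points do not. Ctsd lies at 3.11 for IKDC and 3.31 for NK against CDC, Ctsh at -4.29 and -6.04, and no gene is filled in the panel of IKDC against NK.

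Of the aspartic proteases Ctsd and Ctse, Ctsd was called higher in both IKDC and NK than in CDC. Ctsd, an abundant endopeptidase of late endosomes and lysosomes, was at log2 levels of 9.05 and 8.86 on the spleen CDC arrays, 12.19 and 12.33 on the spleen NK arrays, 11.78 and 12.35 on the spleen IKDC arrays, and 8.74, 11.86 and 11.80 on the LN CDC, NK and IKDC arrays. All 6 NK and IKDC arrays lay above all 3 CDC arrays, by more than the replicates differed from each other. The difference from CDC was 3.11 ± 0.26 (SE), or 8.64-fold, in spleen IKDC (limma, adjusted p = 0.00147) and 3.31 ± 0.26, or 9.89-fold, in spleen NK (adjusted p = 0.000895). Ctsd has only 1 single-symbol probe set, so no other probe set bears on it.

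Ctse, an endosomal aspartic protease of immune and gastric cells, was at 9.81 and 9.61 in spleen CDC, 10.94 and 11.36 in spleen NK, 10.26 and 11.25 in spleen IKDC, and 10.75, 11.66 and 11.62 in LN CDC, NK and IKDC. The spleen groups of NK and CDC did not overlap, but the LN CDC array lay within the range of the spleen IKDC arrays. NK exceeded spleen CDC by 1.44 ± 0.36, or 2.72-fold, with an adjusted p of 0.0467 (limma), and IKDC by 1.05 ± 0.36 with an adjusted p of 0.139 and a 95% interval of 0.18 to 1.91. The NK call ended when any of the 4 spleen NK and CDC arrays was left out, with adjusted p between 0.129 and 0.264, in a range of 0.00792 to 0.828 over all alternatives. The gene's other probe set went the other way, with NK 1.89 and IKDC 1.91 below CDC (adjusted p = 0.121 and 0.133), so no direction is given for Ctse.

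Among the papain-like cysteine proteases, Ctss, the endopeptidase that removes the last part of the invariant chain in dendritic cells, was highest in CDC. Its levels were 12.71 and 12.83 in spleen CDC, 10.89 and 10.76 in spleen NK, 11.13 and 11.31 in spleen IKDC, and 12.45, 11.20 and 11.99 in LN CDC, NK and IKDC. No NK or IKDC array reached any CDC array, and spleen replicates differed by at most 0.18. Ctss was lower than in CDC by 2.94-fold in spleen IKDC (-1.56 ± 0.19, adjusted p = 0.00457) and by 3.86-fold in spleen NK (-1.95 ± 0.19, adjusted p = 0.00159). The IKDC call ended without spleen CDC array 2 (adjusted p = 0.0554, in a range of 0.00151 to 0.0554 over the alternatives).

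Ctsh, an aminopeptidase of lysosomes and secretory granules, spanned the widest range of the 10 genes. Spleen CDC read 12.23 and 12.48, spleen NK 6.81 and 5.83, spleen IKDC 7.95 and 8.18, and LN CDC, NK and IKDC 11.78, 7.06 and 11.65. Spleen IKDC lay well below CDC but above all 3 NK arrays, and the LN IKDC array lay next to the LN CDC array. In spleen the gene was 19.6-fold lower in IKDC than in CDC (-4.29 ± 0.36, adjusted p = 0.00161) and 65.7-fold lower in NK (-6.04 ± 0.36, adjusted p = 0.000577). Its second probe set gave -4.49 and -6.08.

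Ctsz, a carboxypeptidase that is also secreted, had levels of 11.56 and 12.24 in spleen CDC, 8.08 and 8.63 in spleen NK, 8.30 and 9.80 in spleen IKDC, and 11.59, 8.73 and 10.25 in LN CDC, NK and IKDC. The CDC arrays lay above all others, while the spleen IKDC and NK arrays overlapped. Against CDC it was 7.23-fold lower in spleen IKDC (-2.85 ± 0.53, adjusted p = 0.0197) and 11.7-fold lower in spleen NK (-3.54 ± 0.53, adjusted p = 0.00718). All 3 of its probe sets were called lower in both comparisons. The IKDC call ended without spleen CDC array 1 (adjusted p = 0.0763) or 2 (0.156), in a range of 0.00103 to 0.156 over the alternatives, and the NK call without spleen CDC array 2 (0.0722) or NK array 1 (0.0596), in a range of 0.000341 to 0.0722. The IKDC difference was -2.10 without spleen IKDC array 1 and -3.61 without array 2.

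Ctsb, Ctsc and Ctsl were not called between cell types in spleen. Ctsb, an abundant lysosomal endopeptidase and dipeptidase, was at 11.56 and 12.01 in spleen CDC, 10.73 and 11.45 in NK and 10.84 and 11.16 in IKDC, and its difference from CDC was -0.78 in IKDC (95% interval -1.54 to -0.03, adjusted p = 0.195) and -0.69 in NK (-1.45 to 0.06, adjusted p = 0.227). Ctsc, which activates granzymes in cytotoxic cells, had 6 group means that spanned 0.14 on its brightest probe set, where its 9 arrays read 10.75 to 12.04. The intervals for Ctsc reached from -1.27 to 0.98 in IKDC against CDC and from -1.16 to 1.09 in NK against CDC, so changes of close to 2-fold in either direction lie within both. Its other 2 tested probe sets differed from spleen CDC by -1.52 and -1.36 in IKDC (adjusted p = 0.131 and 0.175) and by -1.17 and -1.32 in NK (0.220 and 0.169), short of a call.

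Ctsl, an endopeptidase with roles in thymic epithelium and in lysosomes at large, varied more between replicates than between spleen cell types. It read 7.31 and 7.83 in CDC, 7.13 and 9.21 in NK and 7.60 and 9.17 in IKDC. On both NK and IKDC, array 2 was higher than array 1, by 2.08 and 1.57. Summed macrophage and monocyte markers (11 of 13 listed genes) were also higher on those arrays: 639 and 5606 on the NK arrays, 2249 and 7185 on the IKDC arrays. The CDC arrays had sums of 12416 and 13360 at the Ctsl levels given, and the part of such cells in the Ctsl difference was not tested.

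Lgmn, which cuts after asparagine and can start the processing of some antigens, varied widely, with its lowest array below the filter level. Spleen CDC read 7.12 and 8.45, NK 4.54 and 6.45, and IKDC 5.93 and 7.25, with LN CDC, NK and IKDC at 7.21, 5.61 and 5.89. Both NK arrays lay below both CDC arrays, and the IKDC arrays overlapped both groups. It was not called, at -2.29 ± 0.79 in NK against CDC (adjusted p = 0.125) and -1.19 ± 0.79 in IKDC against CDC (adjusted p = 0.444).

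Ifi30 encodes the gamma-interferon-inducible lysosomal thiol reductase, which opens disulphide bonds before the proteases cut. Its levels were 12.40 and 12.57 in spleen CDC, 7.84 and 6.64 in spleen NK, 8.52 and 7.84 in spleen IKDC, and 12.53, 7.84 and 10.93 in LN CDC, NK and IKDC. All 3 CDC arrays lay close together and above all other arrays. It was 19.7-fold lower in spleen IKDC (-4.30 ± 0.44, adjusted p = 0.00278) and 37.8-fold lower in spleen NK (-5.24 ± 0.44, adjusted p = 0.00101). The NK difference was -4.64 without spleen NK array 2 and -5.84 without NK array 1. Of all pairs among the 10 genes, Ctsh and Ifi30 had the most similar pattern, with a root mean square difference of 0.56 over the 9 centred arrays, as a description.

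Spleen IKDC and NK could not be separated by any member: 0 of 10 were called, as were 0% of all genes tested, with 600 genes at an unadjusted p under 0.05 and a smallest adjusted p of 0.847. Ctsh was the only member among those 600, at 1.75 ± 0.36 higher in IKDC (unadjusted p = 0.00247, adjusted p = 0.859, 95% interval 0.87 to 2.62). Ifi30 differed by 0.94 (interval -0.12 to 2.00) and Ctss by 0.39 (interval -0.07 to 0.85). In both genes the 2 spleen IKDC arrays lay above the 2 NK arrays. The nearest of these for Ifi30, spleen IKDC array 2 and spleen NK array 1, both read 7.84, a near tie. Ctsd, at -0.20 (interval -0.82 to 0.42), was limited to a difference of less than 2-fold. Over both organs, Ctsh and Ifi30 were the 2 members whose 3 IKDC arrays all lay above all 3 NK arrays, and none lay below, where 9.92% of genes tested did not overlap, 4.86% higher and 5.07% lower. For Ifi30 this too was a near tie, since spleen IKDC array 2 and the LN NK array both read 7.84. For Ctsh the nearest arrays, spleen IKDC 1 and LN NK, read 7.95 and 7.06. The dendritic cell marker sums, with Itgax the largest term of each, were 2357 and 2791 on the spleen IKDC arrays and 2781 and 323 on the spleen NK arrays. The part of dendritic cells in these differences was not tested.

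In LN, where each cell type is a lone array assumed to vary like the spleen arrays, fewer members passed the threshold than in spleen. NK against CDC gave calls for 4 members, 1 higher and 3 lower, where 6.16% of genes were called, 2.93% higher and 3.22% lower: Ctsd at 3.11 ± 0.36 (adjusted p = 0.00963), Ctsh at -4.72 ± 0.51 (0.00851), Ifi30 at -4.68 ± 0.63 (0.0121) and Ctss at -1.25 ± 0.27 (0.0492). The Ctss call ended without any of the 4 spleen CDC and NK arrays (adjusted p between 0.116 and 0.124, in a range of 0.000601 to 0.124 over all alternatives). IKDC against CDC gave a call for 1 member, Ctsd at 3.06 ± 0.36 (adjusted p = 0.0176), where 3.9% of genes were called, 2.06% higher and 1.84% lower. Ctsh differed by only -0.13 there, with a 95% interval of -1.37 to 1.11, and Ifi30 by -1.60 (interval -3.10 to -0.09, adjusted p = 0.263). Ctsl was 4.32 ± 1.10 higher on the LN IKDC array than on the LN CDC array (adjusted p = 0.0999, in a range of 0.00634 to 0.237 over the alternatives). Leaving out a spleen IKDC array cannot move the Ctsl difference and leaves no replicate spread of IKDC to judge it by.

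LN IKDC against LN NK gave no member a call, where 0.055% of genes (6) were called. The largest differences were Ctsh at 4.59 ± 0.51 (adjusted p = 0.0779), Ctsl at 4.03 ± 1.10 (0.617), Ifi30 at 3.08 ± 0.63 (0.315) and Ctsb at 2.20 ± 0.44 (0.315). For Ctsh the adjusted p (limma) had a range of 0.0239 to 0.604 over the alternatives. Leaving out a spleen IKDC array cannot move this difference and takes away all replicate spread of IKDC. Ctsd, Ctse and Ctsc differed by no more than 0.06 between these arrays.

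No member was called between the organs in any cell type, where 0% of genes were called in IKDC and NK and 0.0275% in CDC. The LN IKDC array lay over 2-fold above both spleen IKDC arrays for 4 members, Ctsb, Ctsh, Ctsl and Ifi30, where 2.67% of genes tested did so. No member did so in NK, where 2.13% of genes did, or in CDC, where 4.2% did. No member lay over 2-fold below both spleen arrays, where 1.94% of genes did in IKDC, 2.18% in NK and 4.92% in CDC. On the other probe sets of Ctsb the LN IKDC array also lay above both spleen IKDC arrays, but not always by over 2-fold. They read 8.01 in LN against 6.84 and 7.86 in spleen, 8.69 against 6.34 and 7.71, 7.59 against 4.93 and 6.08, and 10.59 against 8.34 and 9.29. Against the spleen IKDC mean, Ctsh was 3.59 ± 0.45 higher, or 12.1-fold (adjusted p = 0.0598), Ctsl 3.13 ± 0.95 (0.515), Ifi30 2.74 ± 0.54 (0.216), Ctsb 1.33 ± 0.38 (0.473) and Ctss 0.77 ± 0.23 (0.515). None of these passed the threshold, nor did any of the 10916 genes, of which 744 had an unadjusted p under 0.05, among them 5 members. Xist was high on the LN arrays and on spleen arrays 2 but low on spleen arrays 1, so these differences mix organ and sex. Against spleen IKDC array 2 alone, the LN IKDC array was higher by 3.48 for Ctsh, 2.35 for Ctsl, 3.08 for Ifi30, 1.17 for Ctsb and 0.69 for Ctss. The part of sex was not tested. The test of the difference itself, LN IKDC minus LN CDC against the same in spleen, gave Ctsh 4.16 ± 0.63 (adjusted p = 0.319) and called no gene, with 615 genes at an unadjusted p under 0.05.

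**Figure D3:**
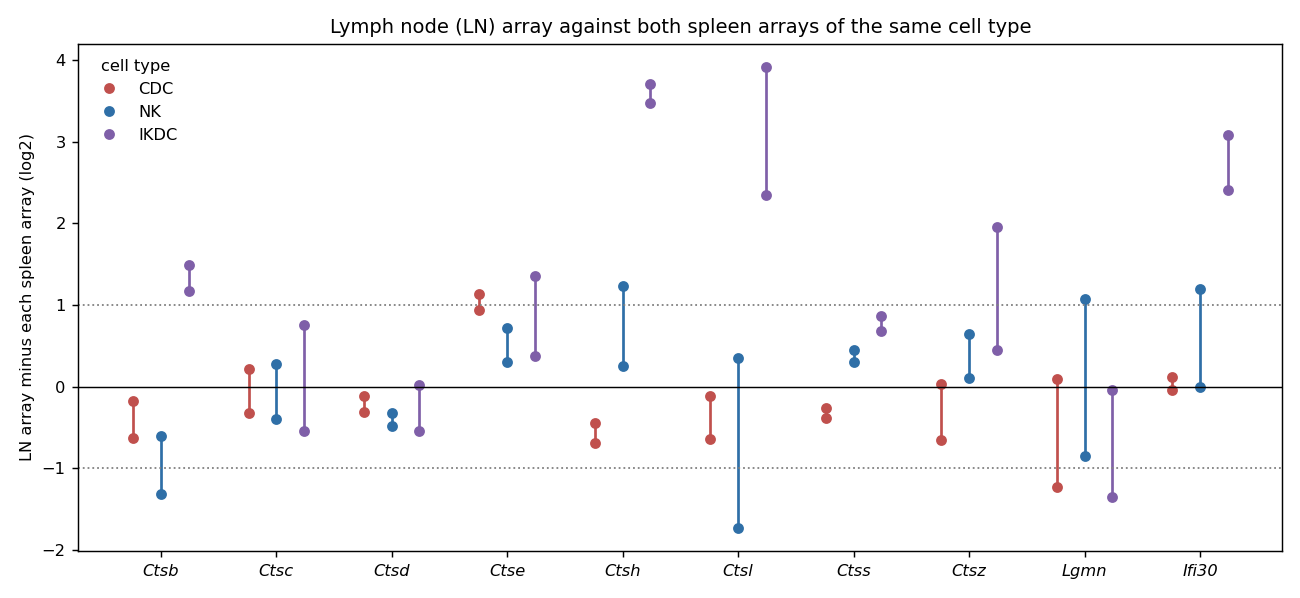
Log2 level on the LN array minus that on each of the 2 spleen arrays of the same cell type, with CDC in red, NK in blue and IKDC in purple. The 2 points of a line are the 2 spleen arrays and dotted lines mark 2-fold. In IKDC both points lie above the upper line for Ctsb, Ctsh, Ctsl and Ifi30, and for Ctsh they lie at 3.48 and 3.71.

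Placed on a scale from the NK level (0) to the CDC level (1) of its own organ, Ctsh in IKDC stood at 0.289 in spleen and 0.972 in LN. Ifi30 stood at 0.179 and 0.659, Ctss at 0.200 and 0.630, and Ctsz at 0.195 and 0.532. Ctsd stayed at the NK end, at 0.0591 and 0.0182, and Lgmn went from 0.479 to 0.179. Where CDC and NK differ by 2-fold or less, as in Ctsb, Ctsc and Ctsl in spleen, no such position is given. The LN values rest on 1 array each.

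On the LN IKDC array the plasmacytoid dendritic cell markers were high together with these genes. Siglech, which marks these cells, was at 10.78 there and at 4.79 to 6.51 on the other 8 arrays, and Ccr9 was at 11.78 beside 10.37 on the LN CDC array and lower values elsewhere. All 5 genes of the list lay at or above the filter level on the LN IKDC array. The conventional dendritic cell sum, with Itgax its largest term, was 2887 there against 9087 on the LN CDC array, and the macrophage and monocyte sum 7199 against 22958. The T cell sum was 1372, the highest of the 9 arrays, but its genes were mixed. Cd4, Cd8b1 and Cd3g read 9.30, 8.79 and 8.27 there, and Cd3e read 4.19, below the filter level. Cd4 also read 8.02 to 9.90 on the CDC arrays, and Cd3g 9.31 on the LN NK array. NK markers summed to 20831, as on the other IKDC arrays. The part of any of these cells in the levels of Ctsb, Ctsh, Ctsl and Ifi30 was not tested.

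**Figure D4:**
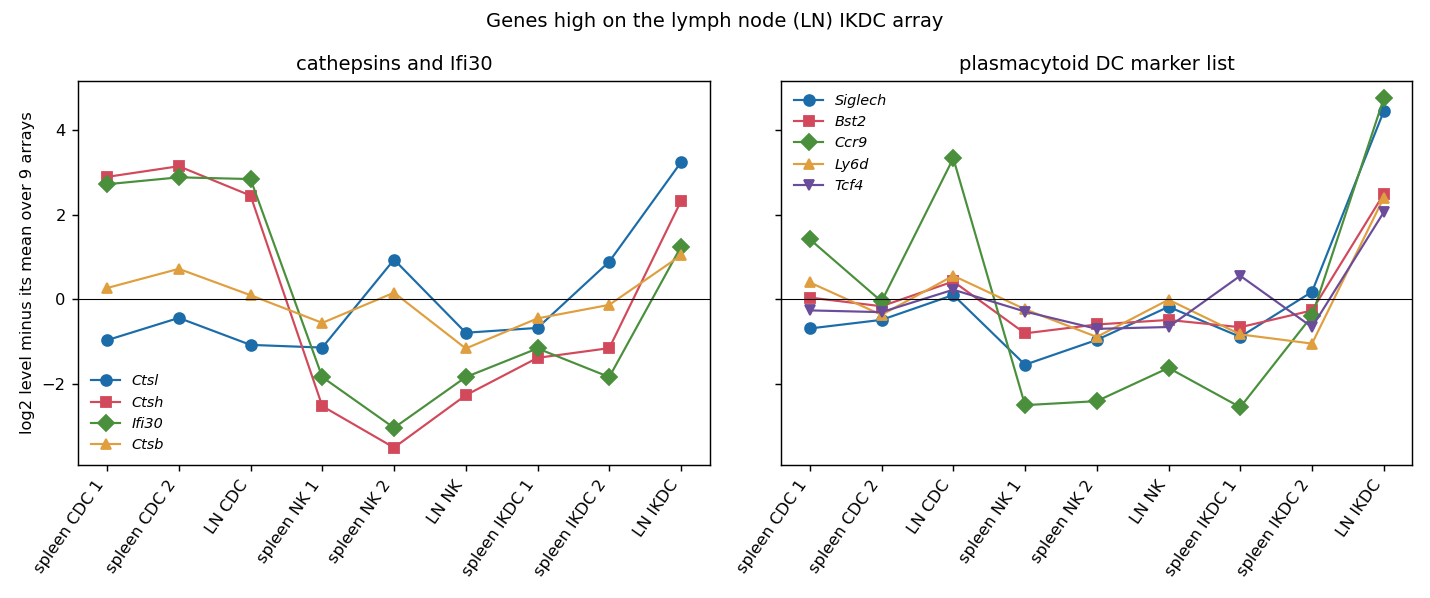
Log2 level minus the gene's mean over the 9 arrays for Ctsl, Ctsh, Ifi30 and Ctsb on the left and for the 5 plasmacytoid dendritic cell markers on the right, array by array; lines only join the points of a gene. Ctsl and Ctsb, and all 5 markers, are highest on the LN IKDC array, while Ctsh and Ifi30 are highest in CDC.

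Other proteases and inhibitors of the system were called in both directions. Of 6 further cathepsins with a probe set, 3 were tested, and Ctsw, a cathepsin of NK and cytotoxic T cells, was 33.5-fold higher in spleen IKDC than in CDC (5.06 ± 0.38, adjusted p = 0.00135) and 47.7-fold higher in NK (5.57 ± 0.38, adjusted p = 0.000732). Ctsa, which protects lysosomal glycosidases, and Ctso were not called. All 8 cathepsins of the placental cluster fell below the filter level. Of 3 cystatins tested, Cst7, an inhibitor carried to the lysosomes of immune cells, was 18.3-fold higher in IKDC (adjusted p = 0.00167) and 22.5-fold higher in NK (0.000947). Cst3, a secreted inhibitor abundant in dendritic cells, was 6.20-fold lower in IKDC (0.0269) and 8.11-fold lower in NK (0.0132), and Cstb, a cytosolic inhibitor, was not called.

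Class II loading genes, the partners of these proteases in presentation, were called in 1 direction. Of 9 class II loading genes tested, 6 were called lower in IKDC than in spleen CDC and 8 in NK, and none higher, with medians of -3.42 and -4.52. Ciita, the class II transactivator, differed by -4.35 in IKDC and -4.97 in NK (adjusted p = 0.00184 and 0.000927), and H2-DMa, a chain of the peptide exchanger, by -3.36 and -3.37 (0.00312 and 0.00221). Cd74, the invariant chain that Ctss trims, differed by -3.32 ± 0.87 in IKDC, short of a call (0.0638), and by -4.52 in NK (0.0182). The leading genes were H2-Ob at -4.87 and Ciita in IKDC, and H2-DMb2 at -6.83 and H2-Ob at -6.35 in NK; H2-DMb2 and Ciita in NK lay below the filter level of 5.31 on average, and class II probe sets can catch transcripts of related genes.

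**Figure D5:**
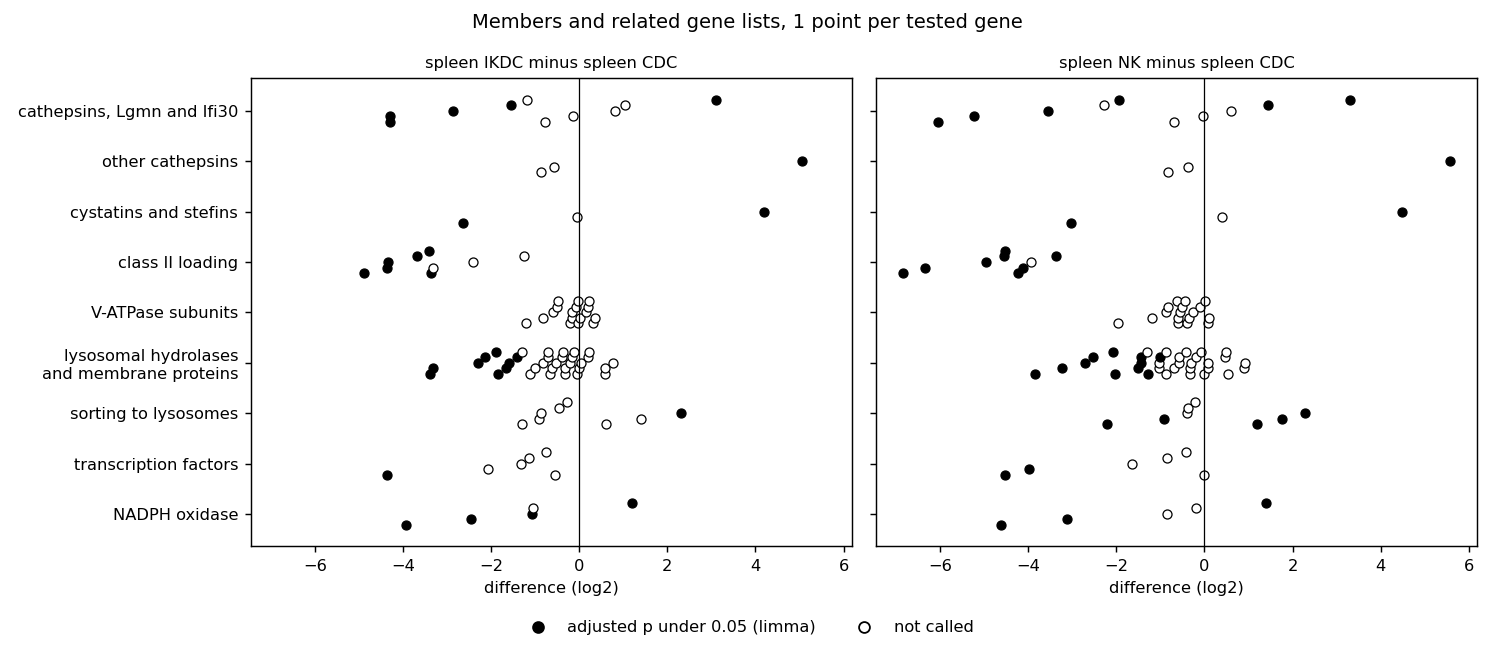
Differences from spleen CDC on the log2 scale for spleen IKDC (left) and spleen NK (right), 1 point per tested gene, for the 10 genes and 8 related lists. Filled points have an adjusted p under 0.05 (limma). None of the 17 V-ATPase subunits is filled, the class II loading genes all lie below 0, and Ctsw and Cst7 stand at the far right of their lists.

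Beyond the proteases, lysosomal hydrolases and membrane proteins called against CDC were called lower. Genes of sorting to lysosomes were not limited to that direction. Of 33 lysosomal hydrolases and membrane proteins tested, 9 were called lower in IKDC than in CDC and 11 in NK, and none higher, with medians of -0.61 and -0.69. Ppt1, the palmitoyl-protein thioesterase, led at -3.39 in IKDC and -3.23 in NK (adjusted p = 0.00128 and 0.000732), with Gm2a, the activator of ganglioside breakdown, at -3.32 and -3.85 (0.00366 and 0.00163). None of 17 V-ATPase subunits, which acidify the endosome, was called in either comparison, with medians of -0.08 and -0.50. Among 8 genes of sorting to lysosomes, Igf2r, a mannose 6-phosphate receptor, was 4.95-fold higher in IKDC and 4.83-fold higher in NK (0.00688 and 0.00590). In NK 3 of the 8 were called higher, with Gnptg at 1.76 (its CDC mean, 4.78, lay below the filter level), and 2 lower, Sort1 at -2.20 and M6pr at -0.92; in IKDC the differences of these 3 were 1.41, -1.30 and -0.91, short of a call.

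Regulators and the oxidase that sets endosomal redox and acidity were measured beside them. Spi1, which encodes PU.1, differed by -4.37 in IKDC and -3.99 in NK (adjusted p = 0.00128 and 0.000732), and Irf4 by -4.52 in NK (0.00495), where its mean of 4.65 lay below the filter level of 5.31. Tfeb was not called, at -0.75 (0.158) and -0.41 (0.426). Of 5 NADPH oxidase genes tested, Cybb, the catalytic subunit, differed by -3.92 and -4.62 (0.0288 and 0.0130) and Ncf1 by -2.46 and -3.11 (0.00554 and 0.00172), while Rac2 was higher by 1.21 and 1.41 (0.0213 and 0.00988). No gene of the 9 related lists was called between spleen IKDC and spleen NK.

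For each member whose group means spanned more than 2 log2 units, the 2 tested genes with the most similar centred levels over the 9 arrays were named. For Ctsd they were Notch1 and Pld3 (root mean square difference 0.16 and 0.21), for Ctsh Pld4 and Ddr1 (0.41 and 0.45), and for Ifi30 Gpr35 and Flt3 (0.27 and 0.38). For Ctsz they were P2rx4 and Sowahc (0.32 and 0.37), for Ctsb Slc27a1 and Ppp1r3d (0.27 and 0.32), and for Lgmn Cyria and Hlcs (0.42 and 0.44). No gene came close to Ctsl, whose nearest were Rab33b and Atp2a1 at 0.80 and 0.81.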

How the data were processed

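Linear signal intensity was deposited for each probe set of 9 arrays, scaled by the authors (the mean between the 2nd and 98th percentile was 150.001 on each) with software not given in the sources used here. Per the labels' protocols, biotin-labelled cRNA was made from 6 ug of total RNA. An offset of 6.49 (the 20th percentile of all values) was added, and log2 values were quantile normalized. Of 45101 probe sets, 34945 carried 1 gene symbol, 932 several and 9160 none, and 64 were controls; symbols were updated through Entrez IDs (34741 matched RefSeq, 204 did not). Each gene was represented by its brightest single-symbol probe set. Of 18193 genes, the 10916 whose mean reached the 40th percentile (log2 5.31) were tested in limma 3.58.1 (R 4.3.3), with 6 groups, eBayes with trend, 3 residual and 3.44 prior degrees of freedom and two-sided p-values adjusted by Benjamini and Hochberg within each of 12 comparisons. The number of arrays limits the precision. The fit was tested on simulated data with known differences.

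Named genes are the 10 members, 8 relatives (Cst3, Cst7, Cstb, Ctsw, Cd74, Ciita, H2-DMa, Spi1), the 2 leading called genes per direction of each of 9 related lists in the spleen comparisons, and the 2 nearest genes of each member spanning over 2 log2 units; Tfeb, Ctsa, Ctso and the marker genes were named beside these. Members and lists were chosen with earlier results of these data known, and the sequence motifs with the sequences in view. The alternatives were the deposited values without quantile normalization, scaling to the 75th percentile, other offsets (1 and 32), no filter or a filter at the 60th percentile, the mean of probe sets or another probe set, no trend, a replicate block, an additive model of organ and cell type, and leaving out each spleen array. A fit of the spleen arrays alone was also run.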

Additional observations from a re-analysis of the deposited data

How the results depend on the processing

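Over 862 member differences under these alternatives, 802 kept their direction and side of the threshold. They covered all members in spleen IKDC and NK against CDC, and elsewhere differences with an unadjusted p under 0.05 (limma). For some the direction could not change, since the filter, trend, block and spleen-only settings leave the estimate as it was. Leaving out a spleen array cannot move a difference between LN arrays, nor one between groups that the array is not in. It alters only the spread by which they are judged. The 802 also include differences that were called neither in the main fit nor in the alternative. Ctsd, Ctsh and Ifi30 kept both calls against spleen CDC in all settings run, as did Ctss in NK against CDC. With an offset of 32, and with the filter at the 60th percentile, 1 member (Ctsh) was called between LN IKDC and LN NK and 1 between LN and spleen IKDC. Under the additive model 6 members were called between LN IKDC and LN CDC and 7 between LN NK and LN CDC, since it sets LN differences equal to those of spleen; Ctsb between LN and spleen IKDC then reversed to -0.0100. Leaving out each array in turn gave 3 to 6 members for spleen IKDC against CDC (3 without CDC array 2), 4 to 6 for spleen NK against CDC, 1 to 2 for LN IKDC against LN CDC, 0 to 1 for LN IKDC against LN NK and 3 to 5 for LN NK against LN CDC.

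The array numbers gave 2 pairs per comparison, and deviations of same-numbered arrays correlated across genes at 0.41 to 0.53, but the labels do not say what a number marks. With a replicate block the counts were 7 for spleen IKDC and 8 for spleen NK against CDC (Ctsb and Lgmn gained), 2 for LN IKDC against LN CDC, 6 for LN NK against LN CDC (Ctsb and Ctsz gained), 3 for LN IKDC against LN NK (Ctsb, Ctsh, Ctsl) and 3 for LN against spleen IKDC (Ctsh, Ctsl, Ifi30).

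The sign turned for Ctse with the mean of its probe sets (-0.43 in IKDC and -0.22 in NK against spleen CDC) or with its other probe set (-1.91 and -1.89). When 1 array was left out it turned for Ctsc in IKDC against CDC (-0.79 to 0.50, with 0.12 without CDC array 2 and 0.50 without IKDC array 1), for Ctsc in NK against CDC (-0.37 to 0.30, with 0.23 without CDC array 2 and 0.30 without NK array 1) and for Ctsl in NK against CDC (-0.44 without NK array 2, to 1.64). The cause was not tested. Low intensity limits Lgmn, whose lowest array lay below the filter level.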

Other observations

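On the spleen arrays numbered 1, 5 members (Ctsb, Ctsc, Ctsl, Ctsz and Lgmn) lay below arrays numbered 2 in all 3 cell types, where 24% of genes tested did. The gap for Lgmn was -1.33 in CDC, -1.91 in NK and -1.32 in IKDC, and for Ctsc, the activator of granzymes, -0.53, -0.66 and -1.29. Within arrays of the same number, Lgmn in IKDC differed from CDC by -1.19 on arrays 1 and -1.20 on arrays 2, and by -1.32 in LN, although its replicates lay over 2-fold apart. Ctsd, Ctse, Ctsh, Ctss and Ifi30 had gaps of mixed sign. The same arrays 1 had the proliferation gene Mki67 at 10.97 to 11.91, against 8.63 to 9.86 on the other 6, and low Xist; the part of either in these gaps was not tested.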
